A study of Mus musculus with 6 samples.

Results

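The T cell receptor gene segments are the germline pieces from which T cells assemble their antigen receptors: variable (V) and joining (J) segments and the constant (C) genes behind them. They were chosen by gene name from the gene table, and no measured value entered the rule: it takes every V and J segment of the alpha, beta, gamma and delta loci together with Trac, Trbc1, Trbc2 and Trdc. This gave 229 of 24182 genes. The alpha locus held 118 V segments, 51 J segments and 1 constant gene, and the beta locus 27, 14 and 2. The delta locus held 4 V segments, 2 J segments and 1 constant gene, and the gamma locus 5 V and 4 J segments. The gamma constant genes are called Trgc1 to Trgc4 in the table and were not reached by the naming rule, so their values are given beside the members as those of neighbouring genes.

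RNA of mouse Th17 cells, the CD4 helper T cells that make interleukin 17, was profiled in bulk in 6 libraries. The 3 Sirt2 KO libraries came from cells in which Sirt2, a NAD-dependent deacetylase gene, had been targeted with CRISPR/Cas9, and the 3 Sirt2 WT libraries from control cells. All cells were held for 72 hours with antibodies to CD3 (0.5 μg/mL) and CD28 (1 μg/mL), and the labels give no further treatment. Whether the KO cells were a pool or 1 clone, the guide, the mouse strain and the number of animals are not given in the sources used here, so p-values reflect the spread from library to library alone, and that spread may be technical.

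In a developing T cell, one V and one J segment (with a D segment between them at the beta and delta loci) are joined in the DNA, and the joined exon is spliced to a constant exon in the transcript. Alpha pairs with beta in helper T cells, and gamma pairs with delta in a separate lineage. A population that descends from many T cells therefore uses many V and J segments, and each segment is read in only some of the cells. The J segment supplies the end of the third loop that contacts antigen, and most J segments encode a Phe-Gly-any-Gly turn.

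The J segments on which the results below turn are shown here from the GENCODE M21 transcripts (GRCm38), on their coding strand, with the bases for that Phe-Gly-any-Gly turn in capitals. All lie on chromosome 14 except the beta segments on chromosome 6 and Trgj4 on chromosome 13.
Traj27: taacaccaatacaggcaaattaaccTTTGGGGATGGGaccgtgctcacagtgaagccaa
Traj23: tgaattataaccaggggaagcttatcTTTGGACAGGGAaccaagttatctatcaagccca
Traj37: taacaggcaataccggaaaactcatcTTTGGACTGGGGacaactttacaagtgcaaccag
Traj39: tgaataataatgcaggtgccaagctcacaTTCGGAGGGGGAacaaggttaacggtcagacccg
Traj33: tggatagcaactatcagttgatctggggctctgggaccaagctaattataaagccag
Trbj2-7: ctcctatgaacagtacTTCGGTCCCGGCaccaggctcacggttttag
Trbj1-2: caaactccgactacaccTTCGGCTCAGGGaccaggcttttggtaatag
Trdj1: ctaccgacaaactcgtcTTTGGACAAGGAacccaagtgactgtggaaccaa
Trgj4: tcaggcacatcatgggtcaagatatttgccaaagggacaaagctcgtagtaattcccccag
The motif was written as TTT or TTC, then GGN, NNN and GGN, where N is any base, and was searched on the coding strand only. It was present in 38 of 51 alpha J segments, 11 of 14 beta J segments, both delta J segments and none of the 4 gamma J segments. Of the middle 60 bases of 141515 GENCODE transcripts, 0.533% held it. Traj33 and Trgj4 carry no match in these letters, which says nothing of how they function.

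Values are FPKM (fragments per kilobase of transcript, scaled for library size), and no read counts or depths are known. The sum over all genes was 303772 to 321734 FPKM per library, and 10642 to 10958 genes reached 1 FPKM. Sirt2 itself measured 11.2, 13.5 and 10.9 FPKM in KO libraries and 20.7, 19.9 and 21.9 FPKM in WT libraries. It fell by 0.76 on the log2(FPKM + 1) scale (SE 0.0920, limma adjusted p = 0.0429). This call was lost under 9 of 13 alternatives, with a limma adjusted p of 0.00905 to 0.376 over all of them. Th17 markers were present in every library, with a summed level over 6 genes of 265.1 to 421 FPKM in KO libraries and 414 to 438 FPKM in WT libraries, and Cd4 stood between 89.4 and 102.5 FPKM in KO and between 91.8 and 93.7 FPKM in WT. KO replicate 3 stood apart: across tested genes it correlated at 0.981 and 0.979 with KO replicates 1 and 2, but at 0.990 with each WT library.

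A gene was tested with limma when it reached 1 FPKM in at least 3 libraries, and an adjusted p under 0.05 over all tested genes was called. Of 10873 tested genes, 10 were higher in KO and 2 lower, which is 0.092% and 0.0184% (0.11% in either direction). The test was open to 122 of the 229 segments and called 1 of them, Traj27, higher in KO. At an unadjusted p under 0.05 the count was 10 of 122 segments, against 610 of 10873 genes. The call of Traj27 was known when these genes were taken as a group and is given as a description. Among tested segments the 3 KO values all lay above the 3 WT values for 11 and all below for 2, where the shares over all tested genes were 4.28% and 6.88%. Among the 107 segments under the filter these counts were 9 and 2, where the shares over such genes with any value above 0 were 3.4% and 3.93%.

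The constant genes of the alpha and beta chains were the most abundant segments, as every rearranged transcript of the locus carries one. Trac (ENSMUSG00000076928, chr14:54220521-54224206), the alpha constant gene, measured 197.4, 199.1 and 198.7 FPKM in KO libraries and 188.4, 183.1 and 186.4 FPKM in WT libraries. Its groups did not overlap, but the difference was small, at 0.09 on the log2(FPKM + 1) scale (SE 0.0535), and did not pass (limma adjusted p = 0.843). Trbc1, the first of the beta constant genes, had 196.5, 199.1 and 176.6 FPKM in KO libraries and 174.1, 180.4 and 186.6 FPKM in WT libraries. Trbc2, the second, had 315.4, 317.9 and 266.2 FPKM in KO libraries and 264.7, 262.1 and 281.5 FPKM in WT libraries. For both beta genes KO replicates 1 and 2 were the highest libraries, and KO replicate 3 lay among the WT libraries. The log2 differences were 0.08 for Trbc1 (95% interval -0.08 to 0.24) and 0.15 for Trbc2 (95% interval -0.05 to 0.35), and neither passed.

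**Figure D1:**
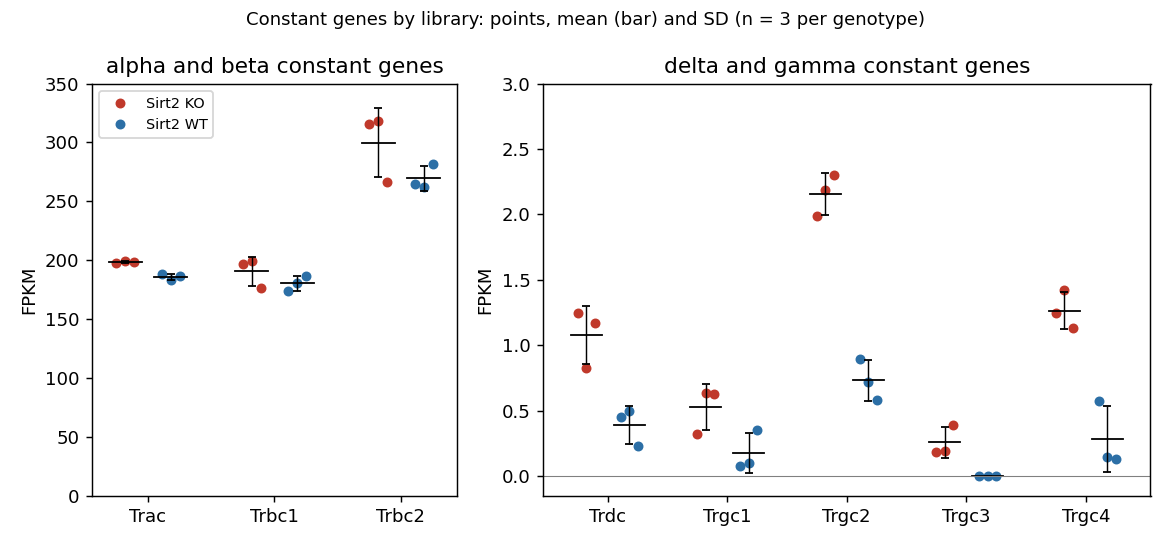
FPKM of the constant genes in each library (points), with the mean (bar) and SD, n = 3 per genotype; alpha and beta genes on the left axis, delta and gamma genes on the right axis, which spans a far lower range. Trac, Trdc, Trgc2, Trgc3 and Trgc4 have no overlap between KO and WT, and Trbc1, Trbc2 and Trgc1 overlap.

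Trbc1 and Trbc2 were compared in sequence because reads can be shared between them. Their coding sequences are each 518 bases long and differ at 23 bases (95.6% identity), of which 1 lies in the first coding exon of 375 bases. The next 90 bases (376 to 465 of the coding sequence) hold 12 of the differences, shown in capitals.
Trbc1: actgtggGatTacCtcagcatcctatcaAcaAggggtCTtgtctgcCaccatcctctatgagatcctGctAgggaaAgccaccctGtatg
Trbc2: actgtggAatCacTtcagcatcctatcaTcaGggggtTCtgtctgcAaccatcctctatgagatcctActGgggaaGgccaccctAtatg
The ratio of Trbc2 to Trbc1 was 1.51 to 1.60 in KO libraries and 1.45 to 1.52 in WT libraries. Because the first exon is nearly the same in both genes, the split between them is uncertain. Each constant gene lies behind its own cluster of J segments, and the sum of the second J cluster over the first was 1.82 to 2.24 in KO libraries and 1.74 to 1.98 in WT libraries, overlapping ranges.

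Beta V use was broad and alike in rank across the libraries. The 27 beta V segments together gave 323.8, 334.7 and 281.0 FPKM in KO libraries and 291.4, 285.4 and 302.3 FPKM in WT libraries, a ratio of means of 1.07. Both the highest and the lowest sum were KO libraries, and the groups overlapped. The highest segment, Trbv13-2 (chr6:41121396-41121832), measured 38.6, 38.7 and 30.5 FPKM in KO libraries and 33.4, 28.6 and 35.3 FPKM in WT libraries. Trbv13-2 is one of the segments known in the mouse by the older name V beta 8. Trbv3 followed with 38.4, 33.5 and 24.1 FPKM in KO libraries and 30.4, 25.1 and 30.6 FPKM in WT libraries. Trbv1 measured 30.2, 35.7 and 30.1 FPKM in KO libraries and 29.1, 25.0 and 28.1 FPKM in WT libraries. Of these 3, only Trbv1 had groups that did not overlap, by a margin of less than 1 FPKM, and its log2 difference of 0.22 (SE 0.0931) did not pass (limma adjusted p = 0.843). Trbv15 averaged 22.1 ± 2.37 FPKM in KO and 20.0 ± 2.08 FPKM in WT, and Trbv19 19.8 ± 0.954 FPKM in KO and 20.3 ± 1.75 FPKM in WT (SD, n = 3 each).

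In all, 20 of 27 beta V segments reached 1 FPKM in every library, and 6 were at 0 in at least 1 library. The 5 annotated as pseudogenes had a median level of 0.0776 FPKM, and the other 22 had a median of 13.3 FPKM. None of the 21 tested beta V segments was called by limma. Their median log2 difference was 0.07, beside -0.03 over all tested genes. Across the 27 segments, log2(FPKM + 1) correlated at a median of 0.987 between a KO and a WT library (9 pairs), 0.980 between KO libraries (3 pairs) and 0.989 between WT libraries (3 pairs). These are correlations across segments of the same libraries and are given as descriptions.

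**Figure D2:**
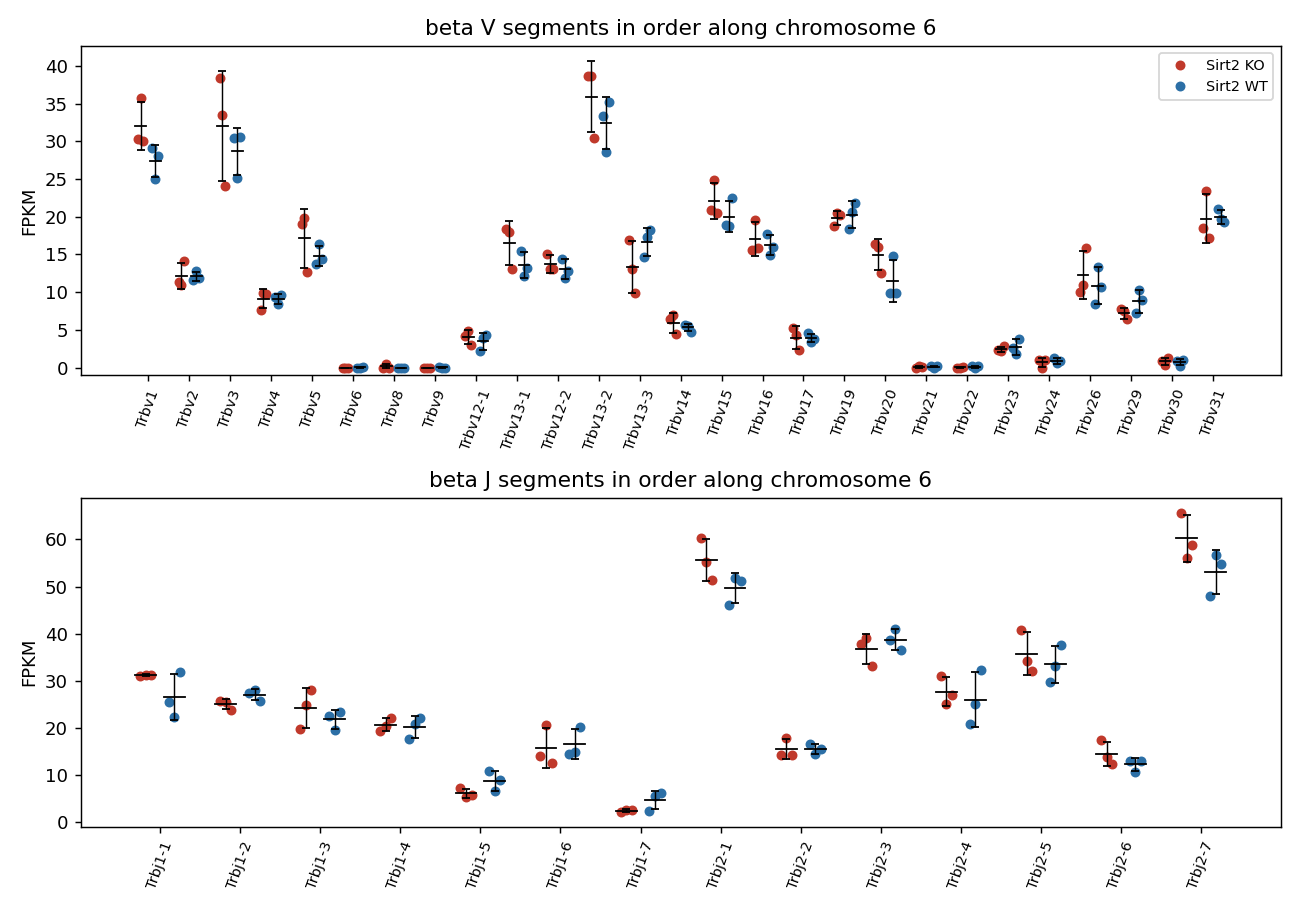
FPKM of the 27 beta V segments (top) and 14 beta J segments (bottom) in each library, in order along the locus, with the mean (bar) and SD, n = 3 per genotype. Trbv13-2 and Trbj2-7 had the highest mean of their kind in both genotypes; the KO and WT points overlap for all but Trbv1 and Trbj1-2.

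All 14 beta J segments reached 1 FPKM in every library, although they are only 46 to 54 bases long. Their sum was 386.5, 372.5 and 355.2 FPKM in KO libraries and 333.6, 350.6 and 379.3 FPKM in WT libraries, a ratio of means of 1.05. Trbj2-7 (chr6:41543810-41543856) was the highest, with 65.7, 56.1 and 58.9 FPKM in KO libraries and 47.9, 56.7 and 54.8 FPKM in WT libraries. Trbj2-1 averaged 55.7 ± 4.38 FPKM in KO and 49.7 ± 3.17 FPKM in WT, and these 2 segments overlapped between the genotypes. Trbj2-3, Trbj2-5 and Trbj1-1 came next, with KO means of 36.7, 35.7 and 31.2 FPKM and WT means of 38.7, 33.5 and 26.6 FPKM, and each overlapped. Trbj1-2 (chr6:41534001-41534048) was the only beta J segment without overlap, at 25.7, 25.6 and 23.8 FPKM in KO libraries and 27.4, 28.1 and 25.7 FPKM in WT libraries. The highest KO value of Trbj1-2 and its lowest WT value were separated by less than 0.1 FPKM, and its difference of -0.11 on the log2 scale (SE 0.0676) did not pass (limma adjusted p = 0.849). Limma called none of the 14, and 2 of the 35 tested beta V and J segments were under an unadjusted p of 0.05. Of the 14 beta J segments, the 1 annotated as a pseudogene still averaged 13.4 FPKM, and the other 13 had a median of 26.1 FPKM.

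Alpha V use was spread over more segments at lower levels. The 118 alpha V segments together gave 216.6, 221.4 and 245.1 FPKM in KO libraries and 226.2, 216.9 and 219.4 FPKM in WT libraries, a ratio of means of 1.03 with overlapping groups. KO replicate 3 held the highest sum. No single segment passed 10 FPKM on average: the highest mean was 7.07 FPKM, the median 1.5 FPKM. Trav7-4 (chr14:53461099-53461738) was highest, with 6.19, 6.81 and 7.91 FPKM in KO libraries and 5.41, 7.91 and 8.17 FPKM in WT libraries. Trav14n-3 followed with 5.52, 8.38 and 6.09 FPKM in KO libraries and 6.10, 6.23 and 7.79 FPKM in WT libraries. Both overlapped between genotypes.

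The mouse alpha V region carries duplicated blocks, whose copies are marked by d and n in the segment names. Of the 118 alpha V transcripts, 40 had an exact copy among the others (20 pairs) and 84 a partner of at least 97% identity, whereas none of the 27 beta V segments did. Levels of such segments are therefore uncertain one by one. Trav6n-7 measured 7.98, 7.61 and 5.75 FPKM in KO libraries and 5.61, 5.51 and 5.09 FPKM in WT libraries, without overlap. Its exact copy Trav6d-7 measured 3.21, 1.57 and 4.70 FPKM in KO libraries and 4.44, 4.47 and 4.78 FPKM in WT libraries. The 2 segments leaned in opposite directions, but their sum was 11.2, 9.17 and 10.5 FPKM in KO libraries and 10.1, 9.98 and 9.87 FPKM in WT libraries, and these sums overlapped. Trav7-2 and Trav7d-2, also exact copies and among the 5 highest, were given nearly equal levels, at 5.80 ± 0.534 and 5.84 ± 0.490 FPKM in KO and 5.64 ± 0.437 and 5.62 ± 0.437 FPKM in WT (SD, n = 3 each). Of the 20 sums over exact pairs, 1 had KO above WT in every library and 0 had KO below.

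Limma called none of the 73 tested alpha V segments, and 5 of them were under an unadjusted p of 0.05. The median log2 difference of these 73 was 0.03. Apart from Trav6n-7, the tested alpha V segments without overlap and with the smallest unadjusted p were the following. Trav13-1 had 5.04, 6.18 and 5.98 FPKM in KO libraries and 3.98, 4.15 and 4.16 FPKM in WT libraries, a log2 difference of 0.40 (SE 0.0914, adjusted p = 0.543). Trav4-4-dv10, which the alpha and delta loci share, had 5.47, 6.92 and 5.99 FPKM in KO libraries and 4.70, 4.70 and 3.62 FPKM in WT libraries, a log2 difference of 0.42 (SE 0.119, adjusted p = 0.797). Trav10n had 2.30, 2.10 and 2.35 FPKM in KO libraries and 1.27, 1.09 and 1.90 FPKM in WT libraries, a log2 difference of 0.44 (SE 0.138, adjusted p = 0.830). Trav14-2 went the other way, with 4.30, 3.31 and 4.55 FPKM in KO libraries and 5.76, 6.19 and 5.49 FPKM in WT libraries, a log2 difference of -0.44 (SE 0.113, adjusted p = 0.654). None of these differences passed with all 6 libraries.

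Summing the segments of a subgroup, the family number in a segment's name, removes most of the doubt between copies. Trav6 was the largest subgroup, with 20.1%, 17.6% and 18.4% of all alpha V FPKM in KO libraries and 20.2%, 20.8% and 17.0% in WT libraries. Trav7 averaged 16.4% ± 1.47 in KO and 16.1% ± 1.06 in WT (SD, n = 3 each). Trav14 took 13.7%, 14.9% and 12.5% in KO libraries and 15.3%, 15.2% and 16.0% in WT libraries, so that every KO share was lower, by less than 1 point between the nearest libraries. Trav13 took 6.99%, 8.66% and 7.84% in KO libraries and 6.98%, 6.30% and 5.81% in WT libraries. Trav4 averaged 8.13% ± 0.230 in KO and 7.41% ± 0.341 in WT (SD, n = 3 each). Trav4 and Trav13 (higher in KO) and Trav14 (lower) were the subgroups without overlap among 20, beside 4.28% higher and 6.88% lower among tested genes, and they were not tested as scores. Of 24 beta V subgroups 0 were higher and 1, Trbv29, was lower without overlap. The Trav13 values of KO replicate 1 and WT replicate 1 were almost equal.

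**Figure D3:**
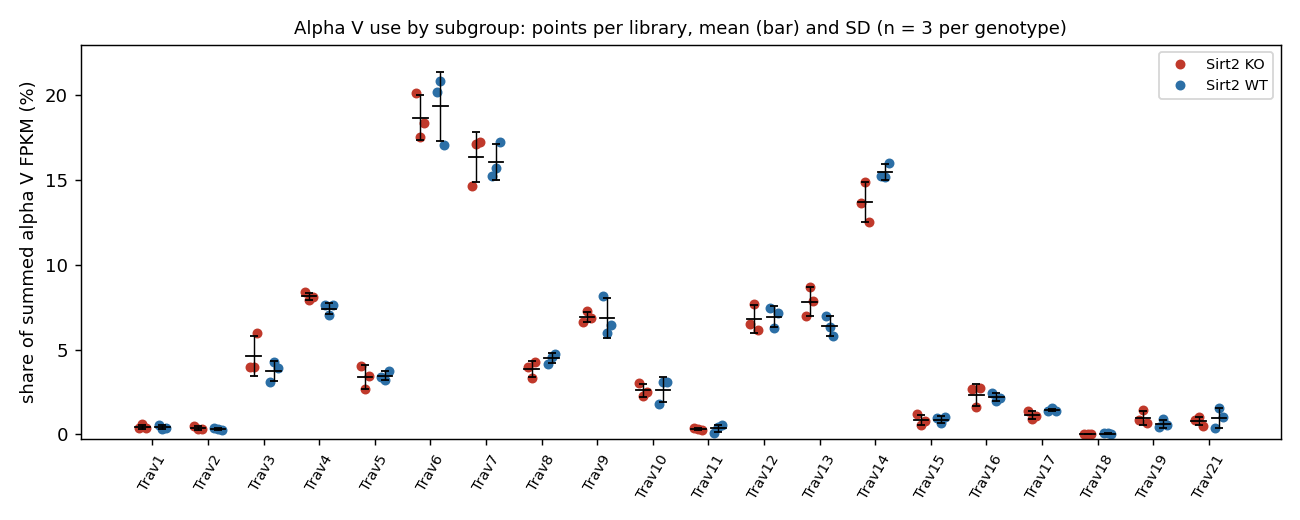
Share of the summed alpha V FPKM taken by each of the 20 alpha V subgroups in each library (points, percent), with the mean (bar) and SD, n = 3 per genotype. Trav6, Trav7 and Trav14 take the largest shares in both genotypes; KO and WT points overlap except for Trav4, Trav13 and Trav14.

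Over the whole V repertoire, KO and WT libraries were compared pair by pair. The distance between 2 libraries was taken as 0.5 times the summed absolute difference of their V shares, which is 0% for identical use. For alpha V segments the median was 16.0% over the 9 pairs of a KO and a WT library (range 14.04% to 16.9%) and 15.6% over the 6 pairs within a genotype (13.5% to 17.8%). For beta V segments it was 7.47% between the genotypes (5.67% to 8.52%) and 6.87% within them (5.35% to 10.6%). The ranges overlapped fully, and the widest pair lay within KO for both loci.

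Alpha J values switched between high and 0 from library to library. Of the 51, 40 were listed at 0 in at least 1 library and 3 reached 1 FPKM in every library, and 36.6% of the 306 values were 0. The number at 0 per library was 25, 22 and 16 in KO and 13, 22 and 14 in WT. Their sum was 52.8, 37.7 and 63.9 FPKM in KO libraries and 52.8, 57.9 and 44.3 FPKM in WT libraries, a ratio of means of 0.997. This was 0.189 to 0.322 times the level of Trac in KO and 0.238 to 0.316 times in WT. For comparison, the beta J sum was 0.720 to 0.802 times the beta constant sum in KO and 0.760 to 0.810 times in WT. Alpha J segments are 29 to 72 bases long, beside 46 to 54 bases for beta J segments.

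For 14 of the 51 alpha J segments, 1 library stood at 3 FPKM or more while another of its genotype stood under 0.5 FPKM. No beta J segment could meet this rule, as all 14 reached 1 FPKM in every library. Of the alpha J segments, 18 reached 3 FPKM in at least 1 library. Traj37 (chr14:54181518-54181577), the highest on average, measured 7.03, 0.655 and 10.6 FPKM in KO libraries and 0.432, 8.16 and 9.41 FPKM in WT libraries. One library of each genotype was therefore more than 10 times below the others. Traj23 (chr14:54196081-54196140) measured 0, 0 and 0.394 FPKM in KO libraries and 8.67, 9.12 and 0.152 FPKM in WT libraries, so that 2 WT libraries carried nearly all of it. Traj39 (chr14:54179962-54180024) was one of the steadier ones, at 5.31, 3.25 and 5.50 FPKM in KO libraries and 4.68, 4.32 and 2.07 FPKM in WT libraries. Traj26 averaged 4.56 ± 1.62 FPKM in KO and 3.54 ± 1.77 FPKM in WT (SD, n = 3 each), with overlap. Across the 51 segments, log2(FPKM + 1) correlated at a median of 0.325 between a KO and a WT library, 0.396 between KO libraries and 0.366 between WT libraries.

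**Figure D4:**
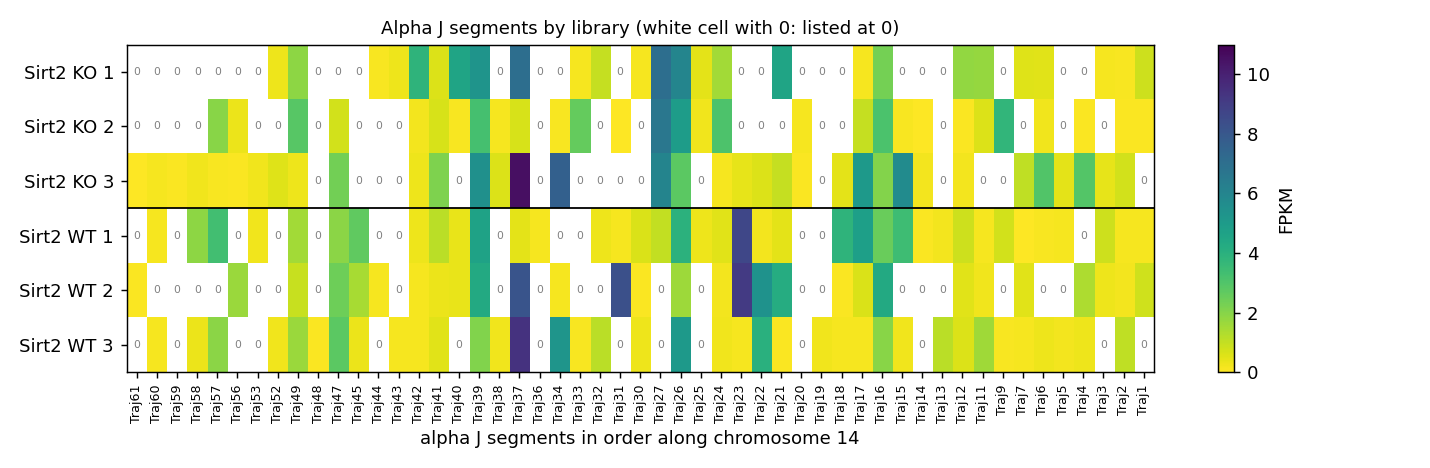
FPKM of the 51 alpha J segments (columns, in order along the locus) in each library (rows, KO above WT); colour gives FPKM and a white cell with 0 a value of 0. Traj27 is high in the 3 KO rows and at 0 or low in the WT rows, while Traj37, Traj34, Traj31 and Traj23 are high in some rows of a genotype and near 0 in others.

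Traj27 (ENSMUSG00000076902, chr14:54192303-54192361), a J segment of 59 bases, was the one segment called by limma with all 6 libraries, higher in KO. It measured 7.02, 6.63 and 6.04 FPKM in KO libraries, and 1.03, 0 and 0 FPKM in WT libraries. The groups were well apart and the KO values close together. The difference was 2.58 on the log2(FPKM + 1) scale (SE 0.265, limma adjusted p = 0.0185). It was the only segment at 1 FPKM or more in every library of one genotype and at 0 in at least 2 of the other. Its KO values alone met the filter of 1 FPKM in 3 libraries, so it entered the test through the group where it was high. The authors' deposited table gave Traj27 a q-value of 0.151 and did not mark it significant. Its call was lost without KO replicate 1 (adjusted p = 0.231), KO replicate 2 (0.124), WT replicate 2 (0.111) or WT replicate 3 (0.140), with no filter (0.139) and with a pseudocount of 0.1 (0.225), in limma throughout. The neighbouring alpha J segments Traj30 and Traj26 did not share its pattern, as the map of alpha J segments shows.

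Alpha J segments with and without the motif differed in median level, with overlapping ranges. The 38 with the Phe-Gly-any-Gly bases had a median level of 0.772 FPKM and the 13 without had 0.0444 FPKM. All of the 5 annotated pseudogenes, which code for no working chain, were among the 13 without the motif. These pseudogenes had a median of 0.0425 FPKM, and the motif was not compared apart from this annotation. Position along the locus had a Spearman correlation with level of 0.14 over 51 alpha J and 0.24 over 118 alpha V segments. For the beta locus it was -0.18 over 27 V and 0.25 over 14 J segments. Without annotated pseudogenes it was 0.087 over 46 alpha J and 0.29 over 109 alpha V segments. The beta values then were -0.38 over 22 V and 0.41 over 13 J segments. These correlations are given as descriptions.

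Segments that mark semi-invariant T cells were low or at 0 in most libraries. Trav11 and Traj18 together form the alpha chain of mouse natural killer T cells, and Trav1 and Traj33 that of mucosal-associated invariant T cells. Trav11 measured 0, 0.259 and 0.284 FPKM in KO libraries and 0, 0.434 and 0.566 FPKM in WT libraries, and it has an exact copy, Trav11d. Traj18 measured 0, 0 and 0.444 FPKM in KO libraries and 3.84, 0.0623 and 0.140 FPKM in WT libraries, with WT replicate 1 alone above 1 FPKM. Trav1 averaged 0.999 ± 0.248 FPKM in KO and 0.917 ± 0.315 FPKM in WT (SD, n = 3 each). Traj33 was above 1 FPKM only in KO replicate 2, at 2.58 FPKM, against 0.147 and 0 FPKM in the other KO libraries and 0, 0 and 0.0906 FPKM in WT libraries. None of these 4 segments separated the genotypes.

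The gamma and delta segments were low in both genotypes. Of the 16 gamma and delta members, 8 had every KO value above every WT value and 0 the reverse, where 4.28% of tested genes and 3.4% of genes under the filter did so. The 8 lie close together at 2 loci and were not counted as independent. In WT, 15 of the 16 never reached 1 FPKM, and 7 were listed at 0 in all of them. In KO 1 of the 16 was listed at 0 in every library: Trgv3, which measured 0, 0 and 0.485 FPKM in WT libraries. Together the 16 summed to 8.80 to 12.8 FPKM in KO libraries and 2.43 to 3.30 FPKM in WT libraries. In bulk RNA, more cells of a type and more RNA per cell cannot be told apart. Limma passed none of the 3 that could be tested, Trgv2, Trdj1 and Trdv1; the first 2 had unadjusted p values under 0.05, and both entered the test through their KO libraries alone.

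Trdc (ENSMUSG00000104876, chr14:54142851-54148868), the delta constant gene, measured 1.24, 0.823 and 1.17 FPKM in KO libraries and 0.448, 0.501 and 0.228 FPKM in WT libraries. It missed the filter with 2 libraries above 1 FPKM. With no filter limma gave it a log2 difference of 0.58 (SE 0.124, adjusted p = 0.561), which did not pass. The authors' deposited table gave it a ratio of 2.75 and a q-value of 0.00623, and Trdc was the only 1 of the 229 segments marked significant there, beside 71 of 24182 genes (0.294%). Trdj1 (chr14:54123138-54123188), a delta J segment, measured 2.31, 1.09 and 1.41 FPKM in KO libraries and 0.535, 0 and 0.119 FPKM in WT libraries. Its log2 difference was 1.09 (SE 0.220, limma adjusted p = 0.322). Trdj2 lay between 0.226 and 0.320 FPKM in KO and between 0 and 0.152 FPKM in WT. Trdv5, the delta V segment behind Trdc on the other strand, measured 0.201, 0.438 and 0.158 FPKM in KO libraries and was listed at 0 in each WT library. It overlaps the end of Trdc, and without a stated strand rule reads of the 2 genes cannot be told apart. Trdv1 averaged 1.68 ± 0.893 FPKM in KO and 1.13 ± 0.788 FPKM in WT and Trdv2-2 0.342 ± 0.393 FPKM in KO and 0.308 ± 0.314 FPKM in WT (SD, n = 3 each); both overlapped.

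In the mouse gamma locus each constant gene has its own J and V segments beside it. Trgv2 (chr13:19336573-19337167, minus strand) measured 1.12, 1.13 and 1.33 FPKM in KO libraries and 0.424, 0.198 and 0.338 FPKM in WT libraries. Its log2 difference was 0.73 (SE 0.118, limma adjusted p = 0.142). Trgj2, its J segment, measured 0.632, 0.317 and 2.07 FPKM in KO libraries and 0.137, 0.271 and 0.306 FPKM in WT libraries. Trgc2 (chr13:19304649-19307551), the constant gene of that cluster, measured 1.99, 2.19 and 2.30 FPKM in KO libraries and 0.896, 0.722 and 0.583 FPKM in WT libraries. Every gene of the cluster was higher in each KO library. Trgc2 missed the threshold with a log2 difference of 0.87 (SE 0.111, limma adjusted p = 0.0503), passed it with libraries scaled to a common median (0.0393) or without a mean trend (0.0224), reached an adjusted p of up to 0.338 under other alternatives, and had a q-value of 0.00331 in the authors' deposited table.

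Trgj4 (chr13:19342152-19342212) showed the same order of the groups at the next cluster, with 1.65, 1.90 and 0.996 FPKM in KO libraries, and it was listed at 0 in each WT library. Trgc4, the constant gene behind it, measured 1.24, 1.42 and 1.13 FPKM in KO libraries and 0.571, 0.146 and 0.129 FPKM in WT libraries (log2 difference 0.84, SE 0.156, limma adjusted p = 0.247). Trgv1 measured 0.133, 0.653 and 0.770 FPKM in KO libraries and 0.245, 0 and 0 FPKM in WT libraries, and overlapped. Trgj1 was listed at 0 in each WT library and measured 0.900, 0.0512 and 0.651 FPKM in KO libraries. Trgv4, read in gamma delta T cells, measured 1.5, 0 and 0.477 FPKM in KO libraries and was listed at 0 in each WT library. Trgc3 measured 0.187, 0.192 and 0.393 FPKM in KO libraries and was listed at 0 in each WT library. Trgc1 averaged 0.527 ± 0.178 FPKM in KO and 0.175 ± 0.151 FPKM in WT (SD, n = 3 each), with overlap. Without KO replicate 3, 8 of the 16 members had every remaining KO value above every WT value and 0 the reverse.

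**Figure D5:**
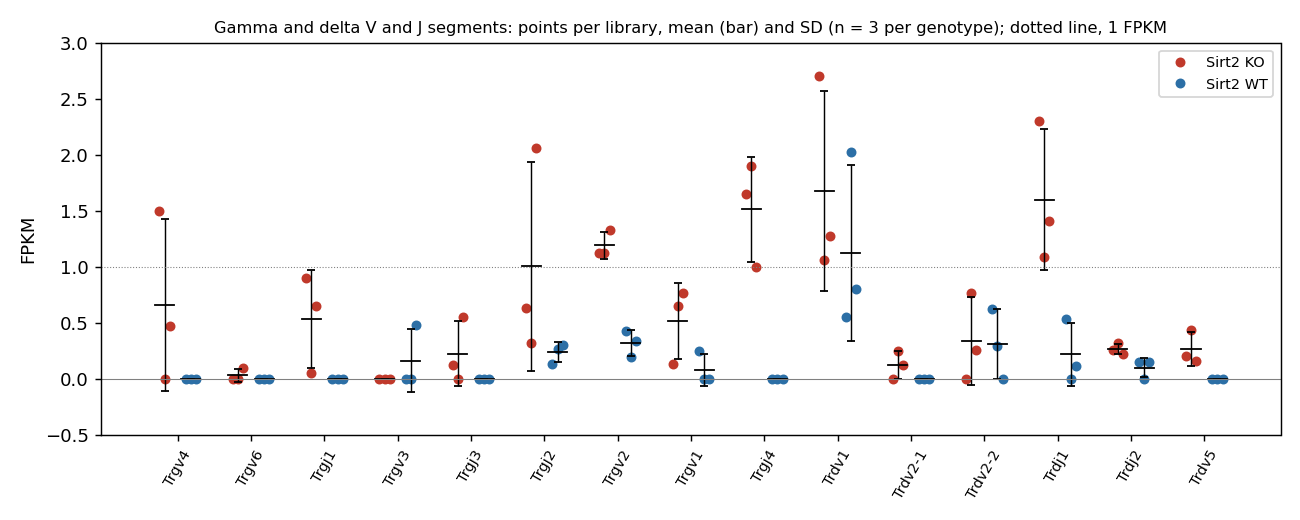
FPKM of the gamma (left) and delta (right) V and J segments in each library, in order along each locus, with the mean (bar) and SD, n = 3 per genotype; the dotted line marks 1 FPKM. Trgj1, Trgj2, Trgv2, Trgj4, Trdj1, Trdj2 and Trdv5 have every KO point above every WT point, at levels under 3 FPKM, and the rest overlap.

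Markers of other cells were read beside these segments. Of the 4 gamma delta T cell markers, Blk, a Src family kinase, measured 0.0930, 0.0481 and 0.0763 FPKM in KO libraries and was listed at 0 in each WT library, while Sox13, Cd163l1 and 5830411N06Rik overlapped. The 4 summed to 0.198 to 0.347 FPKM in KO libraries and 0.176 to 0.269 FPKM in WT libraries, and none reached 1 FPKM. Of 6 myeloid markers 4 had every KO value above every WT value, where 4.28% of tested genes and 3.4% of genes under the filter did so. The KO sums of the 6 were 37.8 to 38.9 FPKM, and the WT sums 29.7 to 30.9 FPKM. Lyz2, a macrophage lysozyme gene, measured 8.31, 9.44 and 4.24 FPKM in KO libraries and 1.38, 1.03 and 0.782 FPKM in WT libraries. Ighm, the heavy chain gene of B cell immunoglobulin M, measured 22.0, 21.3 and 25.3 FPKM in KO libraries and 18.5, 18.6 and 18.3 FPKM in WT libraries, and Ms4a1, another B cell gene, was at 0 in every WT library. Cd8a measured 0.436, 0.409 and 0.225 FPKM in KO libraries and 0.0931, 0.0856 and 0.120 FPKM in WT libraries, and Cd8b1 overlapped, the sum of both being 3.59 to 6.15 FPKM in KO libraries and 3.84 to 4.98 FPKM in WT libraries. Of the 4 NK cell markers 1, Eomes, was in the table, and it overlapped. The part of these cells in the gamma and delta values was not tested.

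The genes through which the receptor signals gave a reference for these differences. Of a list of 20 such genes (CD3 chains, coreceptors, proximal kinases and adaptors, and the recombination genes), 18 were in the table and 14 could be tested. Limma called none in either direction, none was under an unadjusted p of 0.05, and their log2 differences ran from -0.21 to 0.23 with a median of 0.05. Among the listed genes under the filter, Syk and Cd8a had every KO value above every WT value, while Rag1 and Dntt overlapped. Of all genes under the filter with any value above 0, 3.4% were higher in KO in this way. Syk, a kinase, measured 0.212, 0.110 and 0.226 FPKM in KO libraries and 0.0470, 0.0635 and 0.0914 FPKM in WT libraries. Groups did not overlap for 1 tested gene higher in KO, Cd247, and 1 lower, Lcp2, beside 4.28% and 6.88% of all tested genes. Cd247, the zeta chain that carries the receptor's signal, measured 23.1, 23.5 and 24.8 FPKM in KO libraries. Its WT values were 20.5, 22.0 and 21.5 FPKM. Lcp2, an adaptor, measured 81.3, 77.1 and 82.7 FPKM in KO libraries and 85.3, 83.8 and 84.5 FPKM in WT libraries. Their limma adjusted p values were 0.843 and 0.870. Rag1, which cuts the segments for joining in developing T cells, was at 0 in 5 of 6 libraries, and Dntt, which adds bases at the joints, stayed at 0.639 FPKM or less in KO and 0.513 FPKM or less in WT.

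The V and J segments of the alpha and beta loci had a larger median spread between replicates than tested genes of like level. The within-genotype SD on the log2(FPKM + 1) scale had a median of 0.251 over the 73 tested alpha V segments, 0.580 over the 8 tested alpha J segments, 0.215 over the 21 tested beta V segments and 0.174 over the 14 beta J segments. Over tested genes with a mean of 1 to 8 FPKM it was 0.142, and over those of 10 to 70 FPKM 0.105. The constant genes varied less than these V and J medians, with SDs of 0.0153 for Trac and 0.0754 and 0.109 for the beta constant genes. Over all tested genes the median was 0.124, and genes at the level of the constant genes were not set apart for comparison. Trgv2, the tested gamma V segment, had 0.105.

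Leaving out KO replicate 3 changed the number of calls more than any other choice. Without it limma called 1088 of 10726 genes, 4% higher in KO and 6.14% lower. Of 113 tested segments it called 6 higher (Traj27, Trav13-1, Trav6n-7, Trbv5, Trbv13-1 and Trbc2) and 3 lower (Trav14-2, Trav6d-7 and Traj47), which is 5.31% and 2.65%. Trbc2 then differed by 0.23 (SE 0.0517, adjusted p = 0.0368). Trav6n-7 and Trav6d-7, the exact copies described above, were called in opposite directions, at 0.46 (adjusted p = 0.0181) and -0.76 (adjusted p = 0.0477). Traj47 then differed by -1.33 (adjusted p = 0.0232), from 0 and 0.770 FPKM in KO replicates 1 and 2 and 1.91, 2.42 and 2.78 FPKM in WT libraries, while KO replicate 3 measured 2.32 FPKM.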

How the data were processed

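The authors deposited a gene table and a transcript table in FPKM, each holding 1 column per library (per the file headers), made from total RNA per the labels' protocols. Per the submitters' processing notes, cutadapt, FastQC, HISAT2, StringTie, DESeq2 and edgeR were used, without versions. How reads across a V to J joint, reads matching several segments and strand were handled was not given in the sources used here. These notes name mm9, but all 259 transcripts of these segments had the same coordinates in GENCODE M21, so coordinates are GRCm38. The deposited ratio, log2, p-value and q-value columns compare KO with WT, per the file headers. The tables hold no read counts, so depth is unknown and no interval for counting error is given. A 0 means listed at 0.

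Genes at 1 FPKM or more in at least 3 libraries were compared on log2(FPKM + 1) with limma 3.58.1 (R 4.3.3), with a mean trend, Benjamini-Hochberg adjustment over all 10873 genes and adjusted p under 0.05. This scale understates changes of low genes. The fit was tested on simulated data first. Members and lists were chosen with earlier results of these data known. Genes named were Sirt2, the constant genes, the 5 highest members of each kind, members called, up to 6 higher and 6 lower without overlap by smallest p, members on in one genotype and at 0 in the other, the segments of semi-invariant receptors and the receptor signalling list; Trbv1, Trav6d-7, Traj30, Traj47, Trbv5, Trbv13-1, Trbv29, Trdj2, Trgj1, Trgv3, Trgv4 and the marker genes were named after their values were seen where that rule did not name them. GO tables were not used. The summed level of the B cell markers is not reported here. Alternatives were a filter at 5 FPKM or none, a pseudocount of 0.1, median scaling, no mean trend, the replicate block, each library left out, transcript sums and adjusted p under 0.01. Figures were drawn with matplotlib 3.10.9.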

Additional observations from a re-analysis of the deposited data

How the results depend on the processing

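All 15 tested log2 differences of single genes kept their direction under every alternative that gave a value, with 157 of 178 values on the same side of the threshold, 15 no longer past it (9 of Sirt2, 6 of Traj27) and 6 newly past it. The 12 genes called over the whole table became 5 with a filter at 5 FPKM, 19 with transcript sums and 7 at adjusted p under 0.01, and ranged from 0 to 1088 when 1 library was left out; the 1088 came without KO replicate 3, the 0 without KO replicate 1. The 1 segment called, Traj27, became 0 with no filter (8 genes called), a pseudocount of 0.1 or adjusted p under 0.01, and the count ranged from 0 to 9 when 1 library was left out. Sums of alpha and beta V and J segments moved by less than their spread. The median distance in V use between genotypes minus that within them was 0.34 points for alpha V segments, 0.71 over subgroups and 0.22 over segments at 1 FPKM or more in every library; for beta V it was 0.60, -0.33 and 0.84 points, so its sign turned over subgroups. These moves were less than the spread of the within-genotype distances, although the distances themselves were smaller over alpha subgroups (median 7.09% between genotypes). The gamma and delta members without overlap, 8 of 16, were 8 to 10 when 1 library was left out, with 0 lower; this check was added after the data were seen, and fewer libraries make overlap rarer. Same-numbered libraries correlated at 0.0067, -0.0170 and -0.0756 in their deviations, so no pairing by replicate number was visible. So few libraries cannot exclude such a pairing. With the replicate block 13 genes and 1 segment were called, and Sirt2 had a limma adjusted p of 0.135. The cause of these changes was not tested. Segments of a under 75 bases and levels under 1 FPKM are read from few fragments, and no depth is known to bound their error.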
